A study of Saccharomyces cerevisiae with 4 samples.

Results

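The mating kinase cascade of budding yeast was followed in 4 strains through 10 genes, which are the kinase genes STE20, STE11, STE7, FUS3 and KSS1, the adaptor gene STE50, the scaffold gene STE5, the phosphatase gene MSG5 and the inhibitor genes DIG1 and DIG2. The genes were taken by name from the array annotation. All 10 were measured, each by 1 probe set, among 5449 measured genes of Saccharomyces cerevisiae. None of the 10 probe sets carries the suffix that marks probes matching several sequences.

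Total RNA from BY4742, a haploid wild type of mating type alpha, and from strains with SIR2, SIR3 or SIR4 deleted was hybridised to Affymetrix arrays. The deletion strains are written sir2Δ, sir3Δ and sir4Δ below, and values given in threes are in that order. Per the labels, the deletions were made by recombination with a KanMX gene, whose own effect cannot be told apart from that of the deletion. All strains grew in YPD, a rich glucose medium, to exponential phase, and the labels name no pheromone treatment. There was 1 array per strain, so no difference below has a replicate check, no test was possible and the number of arrays limits every value.

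The cascade carries the signal of mating pheromone from the membrane to the nucleus. The free G protein beta and gamma subunits recruit the scaffold Ste5, which holds the kinases Ste11, Ste7 and Fus3 together, and Ste20 starts the relay by phosphorylating Ste11. Fus3 and Kss1 then release the transcription factor Ste12 from its inhibitors Dig1 and Dig2. Ste20, Ste50, Ste11, Ste7 and Kss1 also serve filamentous growth, and Ste20, Ste50 and Ste11 serve a branch of osmosensing, whereas FUS3 and STE5 are classed as haploid-specific genes. In diploids, where the a1 and alpha2 proteins are both present, such genes are repressed.

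Values are log2 levels per probe set. They depend on probe sequence and were compared between strains, never between genes. A difference is the log2 level in a deletion strain minus that in wild type, and a call means a difference of at least 2-fold. The background level, from probe sets of a different yeast on the same arrays, was 4.29 in wild type and 4.32, 4.39 and 4.28 in sir2Δ, sir3Δ and sir4Δ. Each deleted gene lay at least 4.81 below wild type in the strain that lacks it. HMRA1, the a1 gene of a silent mating locus, was below background in wild type at 2.87 and at 9.38, 9.01 and 9.80 in sir2Δ, sir3Δ and sir4Δ. Other silent locus genes did not rise: HMRA2 differed by -0.50, -0.34 and -0.29 and HMLALPHA1 by -4.70, -4.93 and -4.59. The probe sets of HMRA2 and HMLALPHA1 can match several sequences, and HMLALPHA2 was not measured. The wild type had the alpha-factor gene MF(ALPHA)1 at 13.23, and the 3 deletion strains had it below background.

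FUS3 and STE5 were much lower in every deletion, and the other 8 genes of the cascade were called in none. Thus 2 of 10 genes were called lower in each of sir2Δ, sir3Δ and sir4Δ, where 1.41%, 1.67% and 1.1% of all genes were called lower. Both were called lower in all 3, as were 0.771% of all genes. The 3 comparisons share the wild-type array and are not independent of each other. No cascade gene was called higher, where 1.45%, 0.734% and 0.349% of all genes were.

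**Figure D1:**
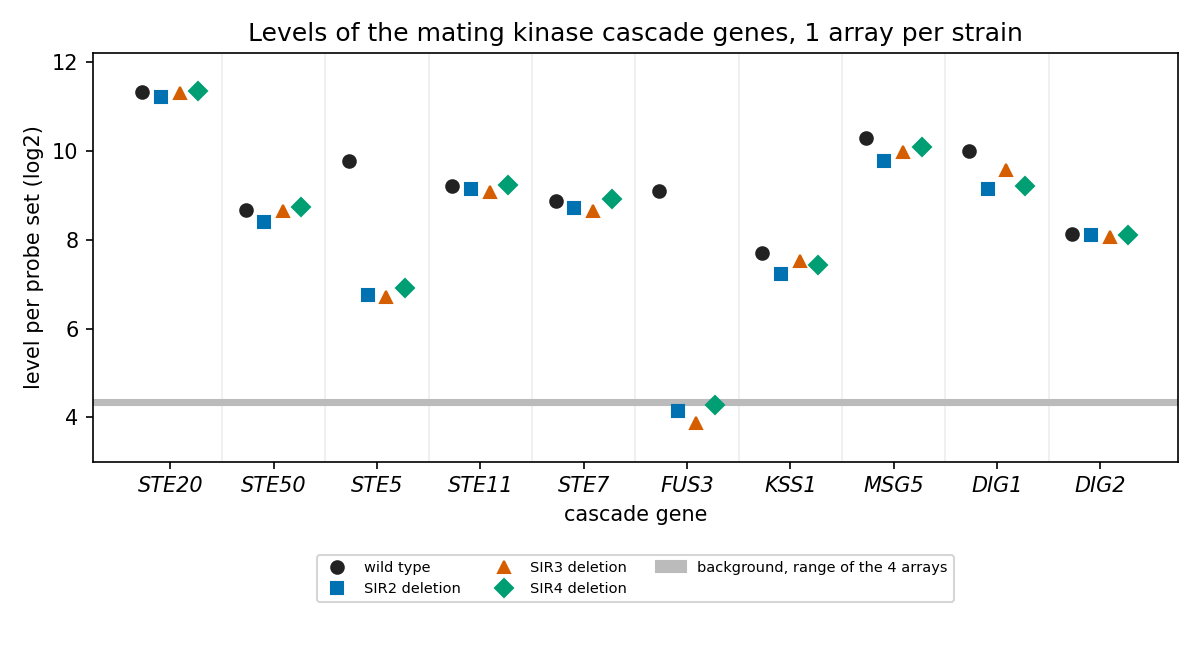
Log2 level per probe set of each cascade gene in the 4 strains, 1 point per array, with the range of the 4 background levels as a grey band. FUS3 lies at 9.10 in wild type and at or under the band in the 3 deletions, and STE5 lies between 6.70 and 6.91 in the deletions against 9.76. The points of the other 8 genes lie closer together, DIG1 spanning most of these at 0.83.

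FUS3 encodes the mitogen-activated protein kinase that drives mating and, through Far1, cell cycle arrest. Its level was 9.10 in wild type, 4.15 in sir2Δ, 3.88 in sir3Δ and 4.28 in sir4Δ. The wild-type array stood 4.81 above its background, while the deletion arrays lay 0.17 and 0.51 below theirs in sir2Δ and sir3Δ and level with it in sir4Δ. The fall is therefore known only as a bound, and the deletion arrays have no order among themselves. With the deletion values raised to background, FUS3 was at least 27.5-fold, 26.3-fold and 28.4-fold lower in sir2Δ, sir3Δ and sir4Δ. That leaves at most 3.63%, 3.81% and 3.53% of the wild-type signal.

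STE5 encodes the scaffold without which pheromone does not activate the kinases. Its level was 9.76 in wild type, 6.76 in sir2Δ, 6.70 in sir3Δ and 6.91 in sir4Δ. Unlike FUS3, STE5 stayed above background in every deletion, by 2.44, 2.31 and 2.63. It differed by -3.00, -3.06 and -2.85, or 8.02-fold, 8.34-fold and 7.23-fold lower. The signal that remained was 12.5%, 12.0% and 13.8% of wild type. The deletion arrays lay within 0.21 of each other for this gene. In these bulk cultures a uniform lower level and a mixture of cells with and without the transcript cannot be told apart.

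Among all 5449 genes ranked from the most negative difference, STE5 held places 20, 21 and 19 in sir2Δ, sir3Δ and sir4Δ. FUS3, with all values raised to background, held places 9, 10 and 7, against 8, 7 and 7 by its measured values, so its exact place is not settled.

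The kinase at the head of the cascade was near its wild-type level. STE20, the p21-activated kinase that Cdc42 switches on, had levels of 11.32, 11.21, 11.30 and 11.34 in wild type and sir2Δ, sir3Δ and sir4Δ. These differ by -0.11, -0.02 and 0.02. STE50 encodes the adaptor that binds Ste11 and brings it to the membrane. Its levels were 8.66, 8.40, 8.65 and 8.73 in the same order, with differences of -0.26, -0.01 and 0.08. The sir2Δ array was the lowest for both genes.

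The middle kinases were likewise within a narrow range. STE11, the kinase of the MAPKK, had 9.20 in wild type and 9.14, 9.07 and 9.23 in sir2Δ, sir3Δ and sir4Δ. STE7, the MAPKK that phosphorylates Fus3 and Kss1, had 8.86 in wild type and 8.71, 8.64 and 8.91. STE11 differed by -0.06, -0.12 and 0.04 and STE7 by -0.14, -0.22 and 0.06, so the 4 arrays of either gene spanned at most 0.27. For both genes sir4Δ was the highest array.

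KSS1 encodes the second kinase that Ste7 activates, which acts in both filamentous growth and mating. Its level was 7.70 in wild type, 7.22 in sir2Δ, 7.52 in sir3Δ and 7.44 in sir4Δ. All 3 deletion strains were below wild type, with differences of -0.48, -0.18 and -0.26, none of them a call. KSS1 lay 3.41 above background in wild type, so a fall as large as that of FUS3 would have reached background. In the deletions it stayed between 2.90 and 3.17 above.

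MSG5 encodes a dual-specificity phosphatase that inactivates Fus3 and also acts on the cell wall kinase Slt2. Its levels were 10.28 in wild type and 9.77, 9.97 and 10.09 in sir2Δ, sir3Δ and sir4Δ, with differences of -0.51, -0.31 and -0.19. MSG5 was lower in each deletion strain than in wild type, most in sir2Δ, and was not called.

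The genes of the paired Ste12 inhibitors had different values. DIG1 was at 9.99 in wild type, 9.15 in sir2Δ, 9.56 in sir3Δ and 9.21 in sir4Δ. It differed by -0.83, -0.43 and -0.78, or 1.78-fold, 1.35-fold and 1.72-fold lower, short of a call. At a 1.5-fold limit DIG1 joined FUS3 and STE5 in sir2Δ and sir4Δ but not in sir3Δ. At that limit 5.07%, 3.78% and 2.09% of all genes were lower in sir2Δ, sir3Δ and sir4Δ. DIG1 held place 120, 336 and 82 among all genes from the most negative. DIG2 was at 8.12 in wild type and 8.11, 8.06 and 8.11 in sir2Δ, sir3Δ and sir4Δ, the narrowest span of the 10 genes at 0.06. The change of DIG1 minus that of DIG2 was -0.82, -0.37 and -0.77.

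**Figure D2:**
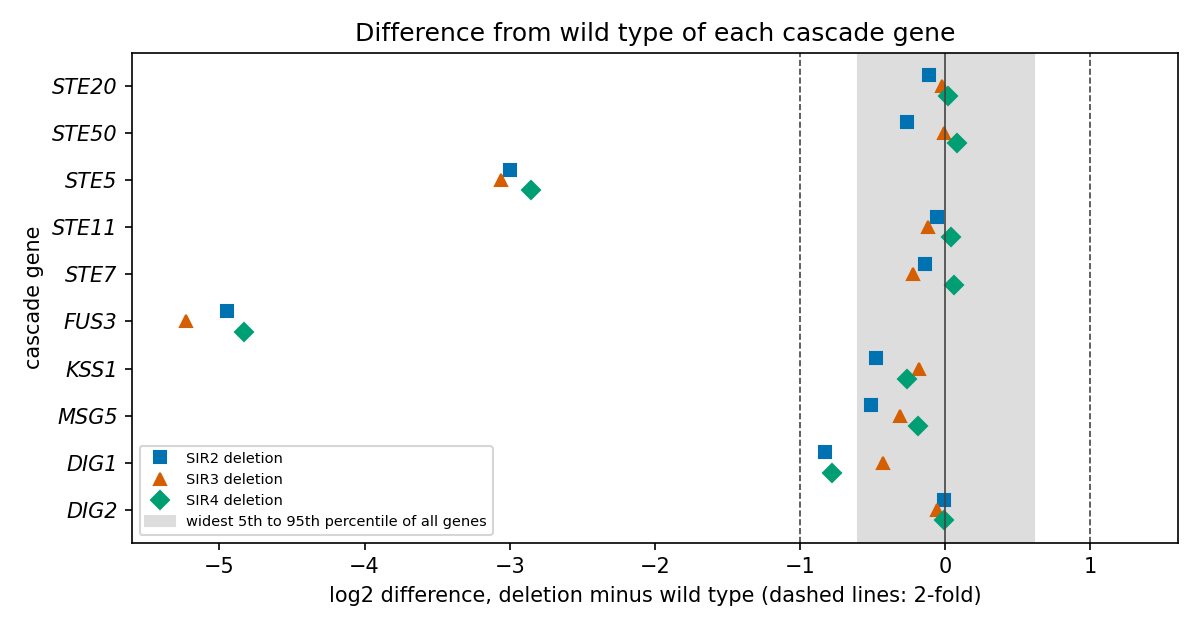
Log2 difference from wild type of each cascade gene in the 3 deletions, with the 2-fold limits dashed and the widest 5th to 95th percentile span of all genes in grey, from -0.60 to 0.61. FUS3, plotted at its measured values, and STE5 lie far to the left, DIG1 lies outside the grey span in sir2Δ and sir4Δ, and the other 7 genes lie inside it.

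The haploid-specific FUS3 and STE5 were set against the 4 shared kinases STE20, STE11, STE7 and KSS1. With values raised to background, the mean difference of FUS3 and STE5 was -3.89, -3.89 and -3.84 in sir2Δ, sir3Δ and sir4Δ. The mean of the shared kinases was -0.20, -0.13 and -0.03. Over the 3 deletions the haploid-specific genes differed from the shared kinases by -3.75, or -3.86 with the measured values of FUS3. The 2 sets did not overlap on any deletion array, the nearest values being -3.00 for STE5 and -0.48 for KSS1, both in sir2Δ.

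The same contrast lay within the last kinase step, where Fus3 and Kss1 take the same signal from Ste7. Relative to KSS1, FUS3 fell at least 19.7-fold, 23.2-fold and 23.7-fold more in sir2Δ, sir3Δ and sir4Δ. Relative to its binding partners, STE5 fell 7.70-fold, 7.66-fold and 7.41-fold more than STE11 and 7.27-fold, 7.17-fold and 7.52-fold more than STE7. These are ratios of changes and say nothing of the relative amounts of the transcripts.

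Across all 10 genes the median difference was -0.37, -0.20 and -0.10 in sir2Δ, sir3Δ and sir4Δ, against medians of 0.00, -0.01 and 0.03 over all genes. Without FUS3 and STE5 it was -0.20, -0.15 and 0.01. The spread among the deletion strains was like that of other genes. The range of the 3 differences was under the all-gene median of 0.27 for 4 of the 10 genes. No cascade gene differed 2-fold between sir2Δ and sir3Δ, sir2Δ and sir4Δ or sir3Δ and sir4Δ, where 1.05%, 1.65% and 1.27% of all genes did. The largest such differences were 0.40 for DIG1 between sir2Δ and sir3Δ and 0.33 for STE50 between sir2Δ and sir4Δ, and 0.40 for FUS3 between sir3Δ and sir4Δ, where it is not above background.

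None of the counterparts of these enzymes in other kinase pathways was called lower. Over all genes 1.41%, 1.67% and 1.1% were called lower in sir2Δ, sir3Δ and sir4Δ, so few or no calls would be found in any lists this small. CLA4 and SKM1, the other p21-activated kinase genes, differed by -0.58, -0.37 and -0.15 and by 0.01, -0.03 and 0.10 in sir2Δ, sir3Δ and sir4Δ. Of the other MAPKKK and MAPKK genes, 3 in each layer, none was called. SSK22, a MAPKKK gene of osmosensing, had -0.69, -0.35 and -0.18, and the 3 MAPKK genes PBS2, MKK1 and MKK2 stayed within 0.14 of wild type. Of the other 4 MAPK genes, SMK1, which acts in spore wall formation, was called higher in sir4Δ at 1.01. HOG1, the osmosensing kinase, had -0.01, -0.22 and -0.38. None of 5 other phosphatase genes was called, with SDP1 at 0.92, 0.14 and -0.26 and PTC1 at -0.18, -0.15 and -0.01.

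**Figure D3:**
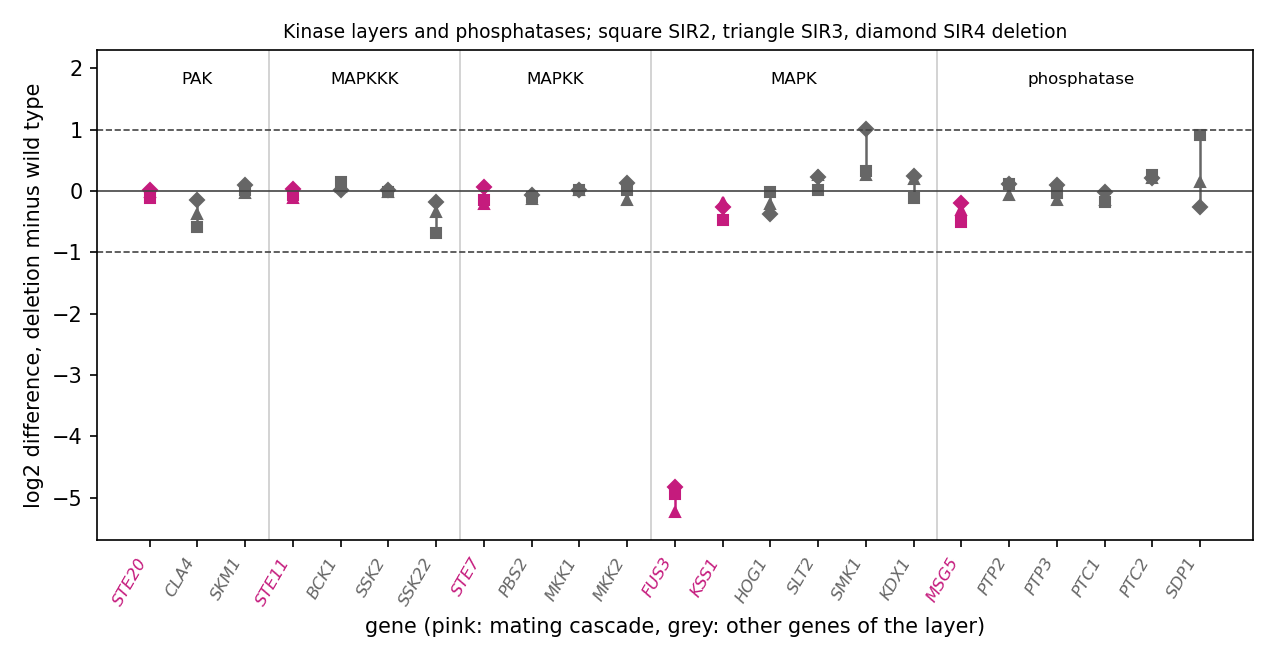
Log2 difference from wild type in sir2Δ (square), sir3Δ (triangle) and sir4Δ (diamond) for the cascade kinases and MSG5 (pink) and for other genes of the same layer (grey), with 2-fold limits dashed and a line joining the values of a gene. FUS3, at its measured values, is the gene far below the rest, and SMK1 touches the upper limit in sir4Δ.

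Listed genes of the HOG and cell wall integrity pathways, which share kinases with the layers above, were then described. The HOG list leaves out STE20, STE50 and STE11, and WSC1 of the cell wall list was not measured. Of 11 genes of the HOG pathway, which answers high osmolarity, none was called in any deletion, with medians of -0.04, -0.13 and 0.01 in sir2Δ, sir3Δ and sir4Δ. MSB2, a membrane mucin that also feeds the filamentous branch, had -0.74, -0.98 and -0.15, and OPY2, the membrane anchor of Ste50, had 0.13, 0.08 and 0.23. Of 9 measured genes of the cell wall integrity pathway none was called, with medians of 0.01, 0.04 and 0.03. Over all genes 1.41%, 1.67% and 1.1% were called lower and 1.45%, 0.734% and 0.349% higher. Lists as small as these 2 would mostly show few calls or none, so their counts do not set them apart from other genes. RLM1, its transcription factor gene, had 0.08, 0.61 and 0.18, and SLT2, its MAPK gene, had 0.02, 0.26 and 0.23. Among the Hsp90 chaperone genes, whose products many kinases need to fold, HSP82 was called higher in sir2Δ at 1.35, lay just under the limit in sir3Δ and had -0.55 in sir4Δ. HSC82 stayed within 0.11 of wild type, and CDC37, the cochaperone that brings kinases to Hsp90, had -0.18, 0.05 and -0.20.

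Upstream of the cascade most pheromone receptor and G protein genes were lower with FUS3 and STE5. The list held the receptor genes STE2 and STE3, the G protein genes GPA1, STE4 and STE18, and also SST2. Of these 6 genes, 5 were called lower in all 3 deletions, all but STE2, against 0.771% of all genes. The median of the 6, with values raised to background, was -3.61, -3.73 and -3.73. STE3 fell most, with -5.62, -7.53 and -5.69. STE4, the beta subunit that binds Ste5, had -3.08, -3.59 and -3.48, and the a-cell receptor gene STE2 had -0.23, -0.56 and 0.01. The inputs to Ste20 were different. CDC42, its activator, had -0.03, -0.14 and -0.03, CDC24, the exchange factor of Cdc42, had -0.01, -0.10 and -0.04, and BEM1 had -0.31, -0.27 and -0.03. Of the 5 genes of this list FAR1, which arrests the cell cycle, was alone in being called, lower in all 3 deletions. Its differences of -6.65, -6.59 and -6.70 are bounds, since it too was below background in the deletions.

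Downstream, STE12, the transcription factor that Fus3 and Kss1 release, had -1.34, -1.52 and -0.92, a call in sir2Δ and sir3Δ. TEC1, its partner in filamentous growth and a protein that Fus3 marks for degradation, was called lower in all 3 deletions at -1.94, -1.65 and -1.67. MCM1, a partner of Ste12 at mating genes, had -0.07, 0.44 and 0.20. The shares of all genes called lower were 1.41%, 1.67% and 1.1%, with 0.771% called lower in all 3 deletions. Of 10 genes induced by pheromone, 4, 5 and 5 were called lower, or 4, 4 and 5 once values are raised to background, where FIG1 is no longer called in sir3Δ. The list medians were then -0.76, -0.89 and -0.71. The 4 called lower in all 3 deletions were FUS1 at -4.23, -5.21 and -3.73, AGA1 at -2.24, -2.63 and -2.39, PRM1 at -1.76, -2.21 and -1.80 and KAR4 at -1.72, -1.40 and -1.32. CIK1 had -0.32, -0.29 and -0.02 and FUS2 had 0.42, -0.07 and 0.15. The filamentous growth genes FLO11 and PGU1 were not called, with -0.10, -0.04 and 0.29 and with -0.18, 0.60 and 0.13.

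**Figure D4:**
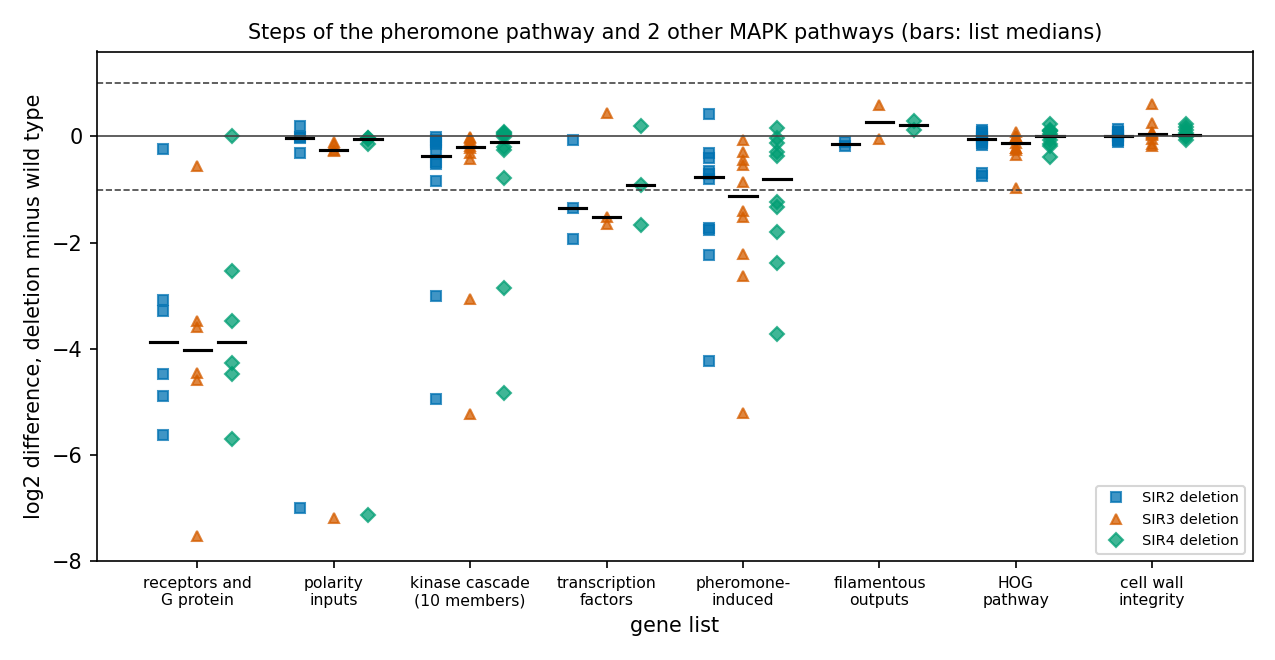
Log2 difference from wild type in the 3 deletions for each gene of the steps of the pheromone pathway and of the HOG and cell wall pathways, at measured values, with list medians as bars and 2-fold limits dashed. Genes of the receptor and G protein list, which includes SST2, lie mostly far below the lower limit. The cascade has FUS3 and STE5 there and 8 genes within the limits, DIG1 the lowest of these. The HOG and cell wall genes lie within the limits.

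The genes whose differences were nearest to those of FUS3 and of STE5 were found over the 3 deletions among 5334 genes above background in wild type. Nearest to the measured values of FUS3 were HMLALPHA1, AFB1, GPA1, STE18 and SAG1, at Euclidean distances from 0.45 to 1.27. Because FUS3 was not above background in the deletions, its distances have no settled order. With all values raised to background, the nearest were HMLALPHA1 at 0.32, GPA1 at 0.39, SAG1 at 0.89, AFB1 at 0.92 and, in place of STE18, RME1 at 1.26. HMLALPHA1, the gene of the alpha1 activator, had -4.70, -4.93 and -4.59, from a probe set that can match several sequences. Its signal therefore cannot be assigned to the copy at the silent mating locus HML, and its fall cannot be read as a fall of that silent copy. GPA1, the G protein alpha subunit gene, had -4.88, -4.59 and -4.47. STE18, the gamma subunit gene, was itself below background in the deletions. Nearest to STE5 were AXL1, SST2, STE4, YGR109W-A and AGA1, at distances from 0.21 to 0.99. The probe set of YGR109W-A can also match several sequences. AXL1, a protease gene of a-factor maturation that also sets the axial budding of haploids, had -2.92, -2.93 and -2.71. All 3 differences share the wild-type array, which makes such likenesses a description of these arrays.

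In gene order the cascade genes are scattered over 8 chromosomes, each with at least 36 protein-coding genes between it and the nearest chromosome end. Of the 20 nearest measured neighbours, none was called in any deletion. Over all genes 1.41%, 1.67% and 1.1% were called lower in sir2Δ, sir3Δ and sir4Δ, and 1.45%, 0.734% and 0.349% higher. With shares this low, few calls or none would be found among any 20 genes, so the count says little about the neighbours. PEP1 and ACH1 beside FUS3 had 0.01, -0.03 and 0.02 and 0.75, 0.55 and -0.12 in sir2Δ, sir3Δ and sir4Δ. ARX1 and SPO71 beside STE5 had -0.40, -0.16 and 0.03 and -0.24, -0.24 and -0.01.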

How the data were processed

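Per the submitters' processing notes, RMA gave the deposited log2 level of each probe set. No version of RMA is given in the sources used here. RMA equalises the distributions of the arrays, so a shift of all genes would not show. The values covered 10928 probe sets, from 2.16 to 15.2. Gene identifiers matched 5498 probe sets to 5449 genes of the R64 table, the brightest standing for each of 47 genes with several. The 95th percentile of 1746 probe sets of another yeast set the background of each array, and none of these differed 2-fold in any deletion.

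Samples were grouped by the labels. With 1 array per strain no test was run, and a call is a log2 difference of at least 1 or at most -1. For a gene at or below background in a deletion, bounds used values raised to background. The members and the lists were chosen with earlier results of these data known. Named genes were the members, the deleted genes, the 5 genes nearest to FUS3 and to STE5, and from the lists genes called in all 3 deletions and those of extreme mean difference; other genes named were chosen after their values were seen. Code for the calls was tested on simulated data with known changes, which says nothing of the error of these arrays. Alternatives changed the scaling, the treatment of low values, the choice of probe sets, the fold limit and the deletions averaged. A planned search of promoters was not run, as sequences were not used here. Python 3.11.15, numpy 2.4.6 and pandas 2.3.3 were used.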

Additional observations from a re-analysis of the deposited data

How the results depend on the processing

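FUS3 and STE5 were called lower in all 3 deletions after centring, repeated normalization and raising values to background, and at a 3-fold limit. Centring shifted all genes by only 0.00, 0.01 and -0.03 in sir2Δ, sir3Δ and sir4Δ, too little to end either call. Raising values could not end them either, as STE5 was above background on every array and FUS3 stood 4.81 above it in wild type. Averaging probe sets and leaving out those that match several sequences could not change the values of these 10 genes, which have 1 probe set each, and a 1.5-fold limit could not end a call. The mean difference of FUS3 ran from -5.09 to -4.77 over 8 alternatives, that of STE5 from -3.03 to -2.93, and that between the haploid-specific genes and the shared kinases from -3.91 to -3.75. DIG1 stayed lower, from -0.81 to -0.60. The mean differences of STE20 and STE50, -0.04 and -0.06, ran up to 0.00 and 0.03, so their signs are not settled. At a 1.5-fold limit 3, 2 and 3 cascade genes were lower in sir2Δ, sir3Δ and sir4Δ. With the largest of the 3 distances as the measure, 4 of the 5 genes nearest STE5 were named again, AGA1 dropping out. With values raised to background, an alternative chosen after seeing the data, 5 of 5 were named again for STE5 and 4 of 5 for FUS3, where RME1 replaced STE18 and the order changed. The signal of FUS3 in the deletions, at or under background, limits its fold to a bound. No paired analysis was possible because each strain had 1 array and the labels give no replicate numbers.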
